A study of Mus musculus with 3 samples.

Results

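Ribosome biogenesis was followed through 46 genes, taken by their symbols and all found among the 24421 symbols of each deposited table. They encode the nucleolar factors that transcribe, modify, cut and assemble ribosomal RNA. Ribosomes are built in the nucleolus, where RNA polymerase I copies the ribosomal DNA into a long precursor. Small nucleolar ribonucleoprotein particles modify that precursor, and assembly factors cut it and fold it with ribosomal proteins into the small 40S and the large 60S subunit. The pathway is most active in growing progenitors, MYC is a well known activator of many of its genes, and it winds down as granulocytes mature.

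RNA was sequenced from granulocyte progenitors, the bone marrow precursors of granulocytes, which were purified by cell sorting in female mice. The 4T1-TB library came from mice that carried 4T1 mammary tumor cells at the orthotopic site, on an F1 semi-syngeneic background with the H-2b/d haplotypes. The IRF8-deficient library came from C57BL/6 mice of the H-2b haplotype that are genetically deficient in the transcription factor IRF8, and the control library (NTB) came from tumor-free mice of the same F1 background as 4T1-TB. Each group is 1 library, so there is no spread between animals, no statistical test and no p-value, and genotype and strain cannot be told apart wherever the IRF8-deficient library is compared. The sources used here do not give age, the number of mice per library, the deficient allele or the markers of the sort.

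Levels are given as RPKM, a read number scaled to the length of the gene and to the size of the library. Whole reads recovered from them came to 23933002 in 4T1-TB, 36584273 in IRF8-deficient and 43319222 in NTB, and all intervals below are 95% intervals that cover counting error only. Irf8 itself stood at 8.6 RPKM in 4T1-TB, 13.7 in IRF8-deficient and 43.8 in NTB. Summed over 8 markers of granulocyte progenitors and promyelocytes the level was 19478 RPKM in 4T1-TB, 9677 in IRF8-deficient and 16547 in NTB, most of it from the granule protein genes Mpo, Elane, Prtn3 and Ctsg. Of these 8 markers 1, the early progenitor marker Cd34, was at least 2-fold lower in 4T1-TB and in IRF8-deficient than in NTB, with 8.73 RPKM in 4T1-TB, 5.41 in IRF8-deficient and 36.9 in NTB. Kit, another early marker, had 37.5 RPKM in 4T1-TB, 53.2 in IRF8-deficient and 57.2 in NTB. The 10 markers of later neutrophil stages summed to 1379.7 RPKM in 4T1-TB, 39896 in IRF8-deficient and 1388 in NTB, and none was at 0. Most of the sum in IRF8-deficient came from the granule protein genes Ngp (16528 RPKM), Camp (11611), Lcn2 (5205) and Ltf (4856). Of these 10 markers, 10 were at least 2-fold higher in IRF8-deficient and 6 in 4T1-TB than in NTB. The like sums of 4T1-TB and NTB hid differences both ways. Ngp had 424 RPKM in 4T1-TB and 632 in NTB, while Retnlg had 178 in 4T1-TB and 6.54 in NTB. The 4 globin genes were listed at 0 in every library, and the 6 monocyte markers summed to 41.8 RPKM in 4T1-TB, 86.4 in IRF8-deficient and 112 in NTB. In such bulk libraries fewer cells of a type and less RNA per cell cannot be told apart. Irf8 was thus lower in both other libraries than in NTB, and reads of it were present in the IRF8-deficient one. Which part of the gene the deficient allele lacks is not known here, so this does not check the label.

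Libraries were compared by the difference of log2(RPKM + 1), a scale that makes low genes look less different than they are. This used the 10658 genes that reached an RPKM of 1 in any library. All 46 members passed that filter. A gene was called when that difference reached 1 either way, which is 2-fold on this scale. The whole set was lower in the IRF8-deficient library. Against NTB 29 of the 46 members were called lower and none higher, where 5.73% of all genes compared were called lower and 8.78% higher. At 1.5-fold 43 members were lower, where 16.7% of all genes were, and all 46 were below 0, where 51.5% of all genes were. Their median difference was −1.10, beside −0.02 for all genes, and the median ratio of their RPKM was 0.453. Against 4T1-TB 36 members were called lower and none higher, where 7.07% of all genes were called lower and 8.83% higher, and the median difference was −1.28. Between 4T1-TB and NTB no member was called in either direction, where 1.35% of all genes were called lower and 1.67% higher, and the median was 0.21, beside 0.01 for all genes. All 46 members had their lowest level in the IRF8-deficient library. For 42 the highest level was in 4T1-TB and for 4, Taf1d, Polr1c, Utp14a and Ltv1, it was in NTB. Scaled by summed reads, 29 members were higher in 4T1-TB than in NTB, where the median difference of all genes was −0.13. Which library was highest or lowest was not counted over all genes. The 3 comparisons use the same 3 libraries in pairs, so they are not independent of each other.

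**Figure D1:**
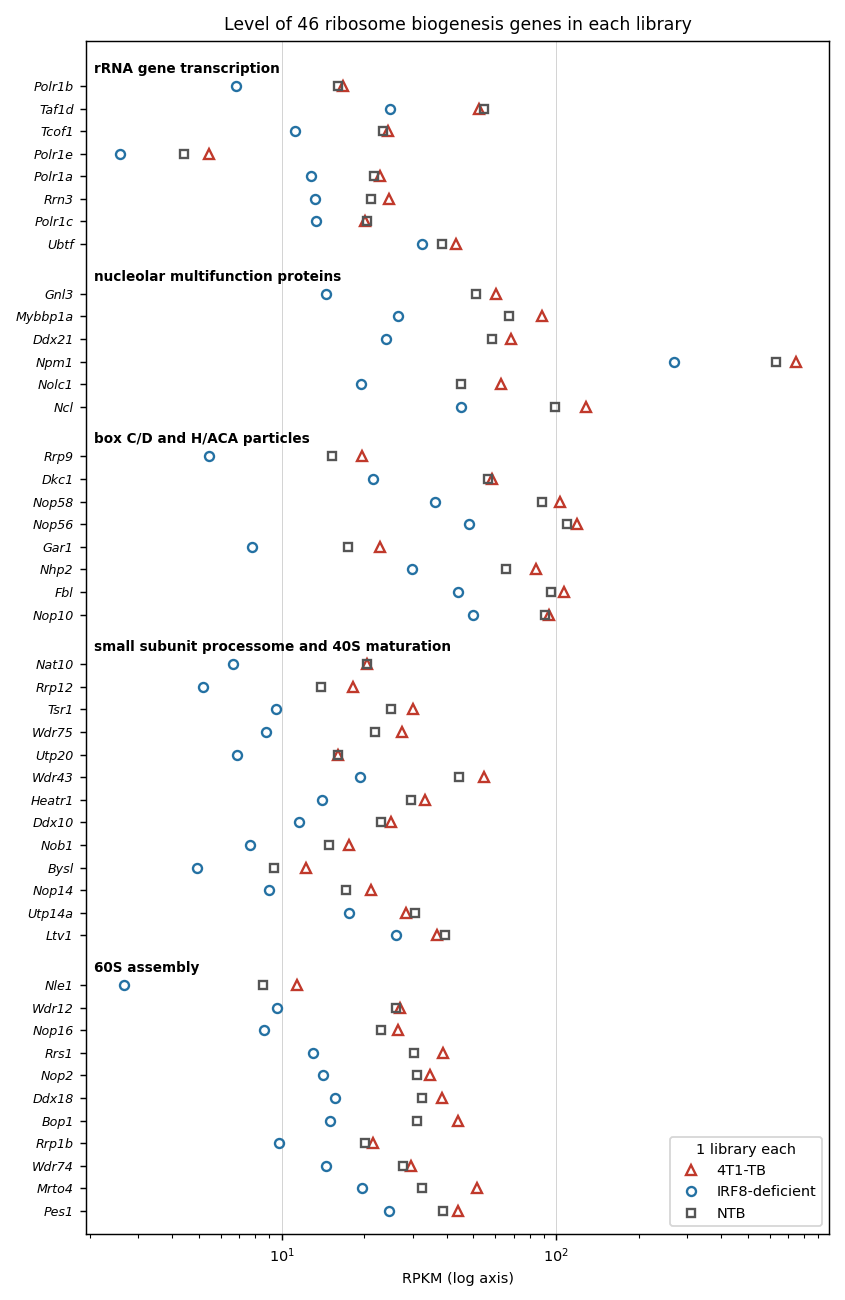
RPKM (log axis) of the 46 members, ordered by role, in 4T1-TB (triangles), IRF8-deficient (circles) and NTB (squares), 1 library each. In every row the IRF8-deficient circle lies to the left of the other symbols, from Npm1 at 268 RPKM down to Polr1e at 2.58.

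Their place among other transcripts was lower too. Their summed RPKM was 2682 in 4T1-TB, 1053 in IRF8-deficient and 2301 in NTB, and they took 0.776% of the recovered reads in 4T1-TB, 0.234% in IRF8-deficient and 0.741% in NTB. Ranked among all genes compared, the median member stood at percentile 78.2 in 4T1-TB, 54 in IRF8-deficient and 78.6 in NTB.

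The promoters of 4 members are shown because they hold CACGTG, the E-box that MYC and its partner MAX are known to bind, and belong to the members with that motif that differed most between IRF8-deficient and NTB. Sequences are RefSeq windows on GRCm38.p6, 250 bases before to 50 after the annotated start, printed 5′ to 3′ on the strand of the gene with the motif in capitals. Nle1 lies on the minus strand (chr11:82908346-82908645), and Mybbp1a (chr11:72441077-72441376), Tsr1 (chr11:74897830-74898129) and Wdr43 (chr17:71615965-71616264) on the plus strand.
Nle1: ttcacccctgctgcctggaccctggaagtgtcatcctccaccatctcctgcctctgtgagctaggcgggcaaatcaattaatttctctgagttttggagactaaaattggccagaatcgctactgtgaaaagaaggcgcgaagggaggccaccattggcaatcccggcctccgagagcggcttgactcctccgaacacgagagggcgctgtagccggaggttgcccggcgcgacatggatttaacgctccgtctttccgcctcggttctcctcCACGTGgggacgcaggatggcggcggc
Mybbp1a: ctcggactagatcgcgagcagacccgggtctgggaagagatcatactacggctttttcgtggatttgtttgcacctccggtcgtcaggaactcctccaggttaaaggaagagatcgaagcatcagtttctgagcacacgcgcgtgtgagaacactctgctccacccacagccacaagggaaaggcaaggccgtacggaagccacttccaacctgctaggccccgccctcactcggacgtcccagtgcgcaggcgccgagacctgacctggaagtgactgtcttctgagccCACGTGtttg
Tsr1: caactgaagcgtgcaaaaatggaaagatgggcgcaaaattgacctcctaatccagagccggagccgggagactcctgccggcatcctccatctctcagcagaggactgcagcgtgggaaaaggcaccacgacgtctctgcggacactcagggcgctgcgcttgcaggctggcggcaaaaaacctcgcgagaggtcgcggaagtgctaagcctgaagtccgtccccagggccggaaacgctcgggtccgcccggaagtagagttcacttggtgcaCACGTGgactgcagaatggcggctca
Wdr43: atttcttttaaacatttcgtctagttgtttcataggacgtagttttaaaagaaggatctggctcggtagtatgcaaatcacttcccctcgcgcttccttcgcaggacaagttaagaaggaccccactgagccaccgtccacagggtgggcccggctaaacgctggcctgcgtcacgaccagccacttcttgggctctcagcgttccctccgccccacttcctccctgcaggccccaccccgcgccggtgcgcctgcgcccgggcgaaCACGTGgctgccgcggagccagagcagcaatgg
In these windows the motif began 24 bases (Nle1), 41 bases (Mybbp1a), 25 bases (Tsr1) and 18 bases (Wdr43) into the transcript, counting its first base as 1.

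Windows were found for 40 members, 48 in all, and 9 of them, in 9 genes, held CACGTG. The motif reads the same on both strands and was the only one searched. That is 18.8% of the members' windows, beside 10.4% of the windows of all genes compared and 7.15% of the 32851 windows in the table. In 7 of the 9 the first copy lay after the start, within bases 3 to 41 of the transcript. Besides the 4 shown, the motif was found at Utp20, Nop2, Rrn3, Pes1 and Ltv1. No window was used for Npm1, Fbl, Bop1, Rrs1, Rrp12 and Tcof1. Members with and without it had nearly the same difference between IRF8-deficient and NTB, with a median of −1.12 for the 9 and −1.06 for the 31. A match describes these letters only and does not show that a factor binds there.

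Starting with ribosomal RNA gene transcription, this was the role with the smallest median difference, and its members were unlike each other. Of its 8 genes 2 were called lower in IRF8-deficient against NTB, with a median of −0.68. Ubtf, which encodes the upstream binding factor that bends and opens the ribosomal DNA promoter, had an RPKM of 43.2 in 4T1-TB, 32.5 in IRF8-deficient and 38.5 in NTB. It was 1.19-fold lower in IRF8-deficient than in NTB (interval 1.14 to 1.23), the smallest difference of all 46 in this comparison. Rrn3, which joins the polymerase to the promoter factors, had 24.7 RPKM in 4T1-TB, 13.2 in IRF8-deficient and 21.1 in NTB, and was 1.6-fold lower in IRF8-deficient than in NTB (interval 1.5 to 1.71). Taf1d, a subunit of the promoter selectivity factor SL1, had an RPKM of 52.5 in 4T1-TB, 24.8 in IRF8-deficient and 54.7 in NTB. At 2.21-fold lower in IRF8-deficient than in NTB (interval 2.06 to 2.36), it was called, with 4T1-TB and NTB near each other. Of the polymerase subunits, Polr1b, the second largest and part of the catalytic centre, had 16.7 RPKM in 4T1-TB, 6.8 in IRF8-deficient and 16 in NTB, and was 2.35-fold lower in IRF8-deficient than in NTB (interval 2.16 to 2.55). Polr1a, the largest subunit, had an RPKM of 22.8 in 4T1-TB, 12.8 in IRF8-deficient and 21.7 in NTB, a level 1.69-fold lower in IRF8-deficient than in NTB (interval 1.63 to 1.75). The counting intervals of these partner subunits did not overlap. Polr1c, which RNA polymerase III shares, had 20.2 RPKM in 4T1-TB, 13.4 in IRF8-deficient and 20.5 in NTB. Polr1e, a subunit that acts in initiation and elongation, had an RPKM of 5.44 in 4T1-TB, 2.58 in IRF8-deficient and 4.42 in NTB, the lowest level of all members in each library. Tcof1, the treacle protein that supports polymerase I transcription in the nucleolus, had 24.4 RPKM in 4T1-TB, 11.2 in IRF8-deficient and 23.4 in NTB. It was 2.08-fold lower in IRF8-deficient than in NTB (interval 1.96 to 2.21), just outside the call at −0.99, where Bop1 at −1.01 was just inside it.

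All 6 abundant nucleolar proteins with several tasks were called lower in IRF8-deficient, in both comparisons, with medians of −1.57 against 4T1-TB and −1.24 against NTB. Npm1, nucleophosmin, a chaperone that helps to hold the nucleolus together, was the highest member in each library, with an RPKM of 745 in 4T1-TB, 268 in IRF8-deficient and 632 in NTB. It lies on the minus strand of chromosome 11 (chr11:33152287-33163206 in mm10) and was 2.36-fold lower in IRF8-deficient than in NTB (interval 2.31 to 2.4). Gnl3, nucleostemin, a GTPase of proliferating and stem cells that takes part in 60S assembly, had 60.5 RPKM in 4T1-TB, 14.5 in IRF8-deficient and 51.2 in NTB. This gene of chromosome 14 (chr14:31012433-31019152, minus strand) had the largest difference of all 46 against NTB, 3.52-fold lower in IRF8-deficient than in NTB (interval 3.26 to 3.81). Ncl, nucleolin, a binder of nascent ribosomal RNA, had an RPKM of 128 in 4T1-TB, 45 in IRF8-deficient and 99.2 in NTB and was 2.21-fold lower in IRF8-deficient than in NTB (interval 2.16 to 2.26). Nolc1, a chaperone of the small nucleolar particles, had 63.1 RPKM in 4T1-TB, 19.5 in IRF8-deficient and 45.1 in NTB. It was 2.31-fold lower in IRF8-deficient than in NTB (interval 2.2 to 2.43), with 4T1-TB above NTB by a ratio of 1.4 (interval 1.35 to 1.45). Mybbp1a, a MYB-binding nucleolar protein, had an RPKM of 88.9 in 4T1-TB, 26.5 in IRF8-deficient and 67.6 in NTB and was 2.55-fold lower in IRF8-deficient than in NTB (interval 2.45 to 2.66). The RNA helicase gene Ddx21, which links polymerase I transcription and processing, had 68.4 RPKM in 4T1-TB, 24.1 in IRF8-deficient and 58.5 in NTB and was 2.43-fold lower in IRF8-deficient than in NTB (interval 2.33 to 2.53).

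Proteins of the modifying particles were lower as a block. Of 8 genes 7 were called lower in IRF8-deficient against NTB, with a median of −1.15. In box C/D particles, which methylate ribosomal RNA, the methyltransferase fibrillarin (Fbl) had an RPKM of 107 in 4T1-TB, 44 in IRF8-deficient and 95.5 in NTB. Of its scaffold partners, Nop56 had 119.5 RPKM in 4T1-TB, 48.1 in IRF8-deficient and 109.5 in NTB. Nop58 had an RPKM of 103 in 4T1-TB, 36.3 in IRF8-deficient and 89 in NTB. The ratio of IRF8-deficient to NTB was 0.461 for Fbl (interval 0.434 to 0.49) and 0.439 for Nop56 (interval 0.42 to 0.459). For Nop58 it was 0.408 (interval 0.399 to 0.417). The recovered reads of Nop58 are all multiples of a common factor taken from a reference gene length. Its interval may therefore be too narrow to be set against those of Fbl and Nop56. Rrp9, a protein of the U3 particle that guides early cuts, had 19.6 RPKM in 4T1-TB, 5.46 in IRF8-deficient and 15.2 in NTB and was 2.78-fold lower in IRF8-deficient than in NTB (interval 2.4 to 3.23). In box H/ACA particles, which turn uridine into pseudouridine, the enzyme dyskerin (Dkc1) had an RPKM of 58.4 in 4T1-TB, 21.6 in IRF8-deficient and 56.5 in NTB and was 2.62-fold lower in IRF8-deficient than in NTB (interval 2.48 to 2.77). Gar1 had 22.9 RPKM in 4T1-TB, 7.83 in IRF8-deficient and 17.4 in NTB and was 2.22-fold lower in IRF8-deficient than in NTB (interval 1.94 to 2.56). Nhp2, another core protein, had an RPKM of 84.4 in 4T1-TB, 29.8 in IRF8-deficient and 65.9 in NTB and was 2.22-fold lower in IRF8-deficient than in NTB (interval 2.05 to 2.4). Nop10, the smallest protein of the particle, had 93.9 RPKM in 4T1-TB, 49.9 in IRF8-deficient and 91 in NTB, and was 1.82-fold lower in IRF8-deficient than in NTB (interval 1.73 to 1.92). Its interval lay apart from that of Dkc1. Ratios to NTB ran from 0.382 (Dkc1) to 0.548 (Nop10) for the 4 H/ACA proteins and from 0.359 (Rrp9) to 0.461 (Fbl) for the C/D proteins.

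**Figure D2:**
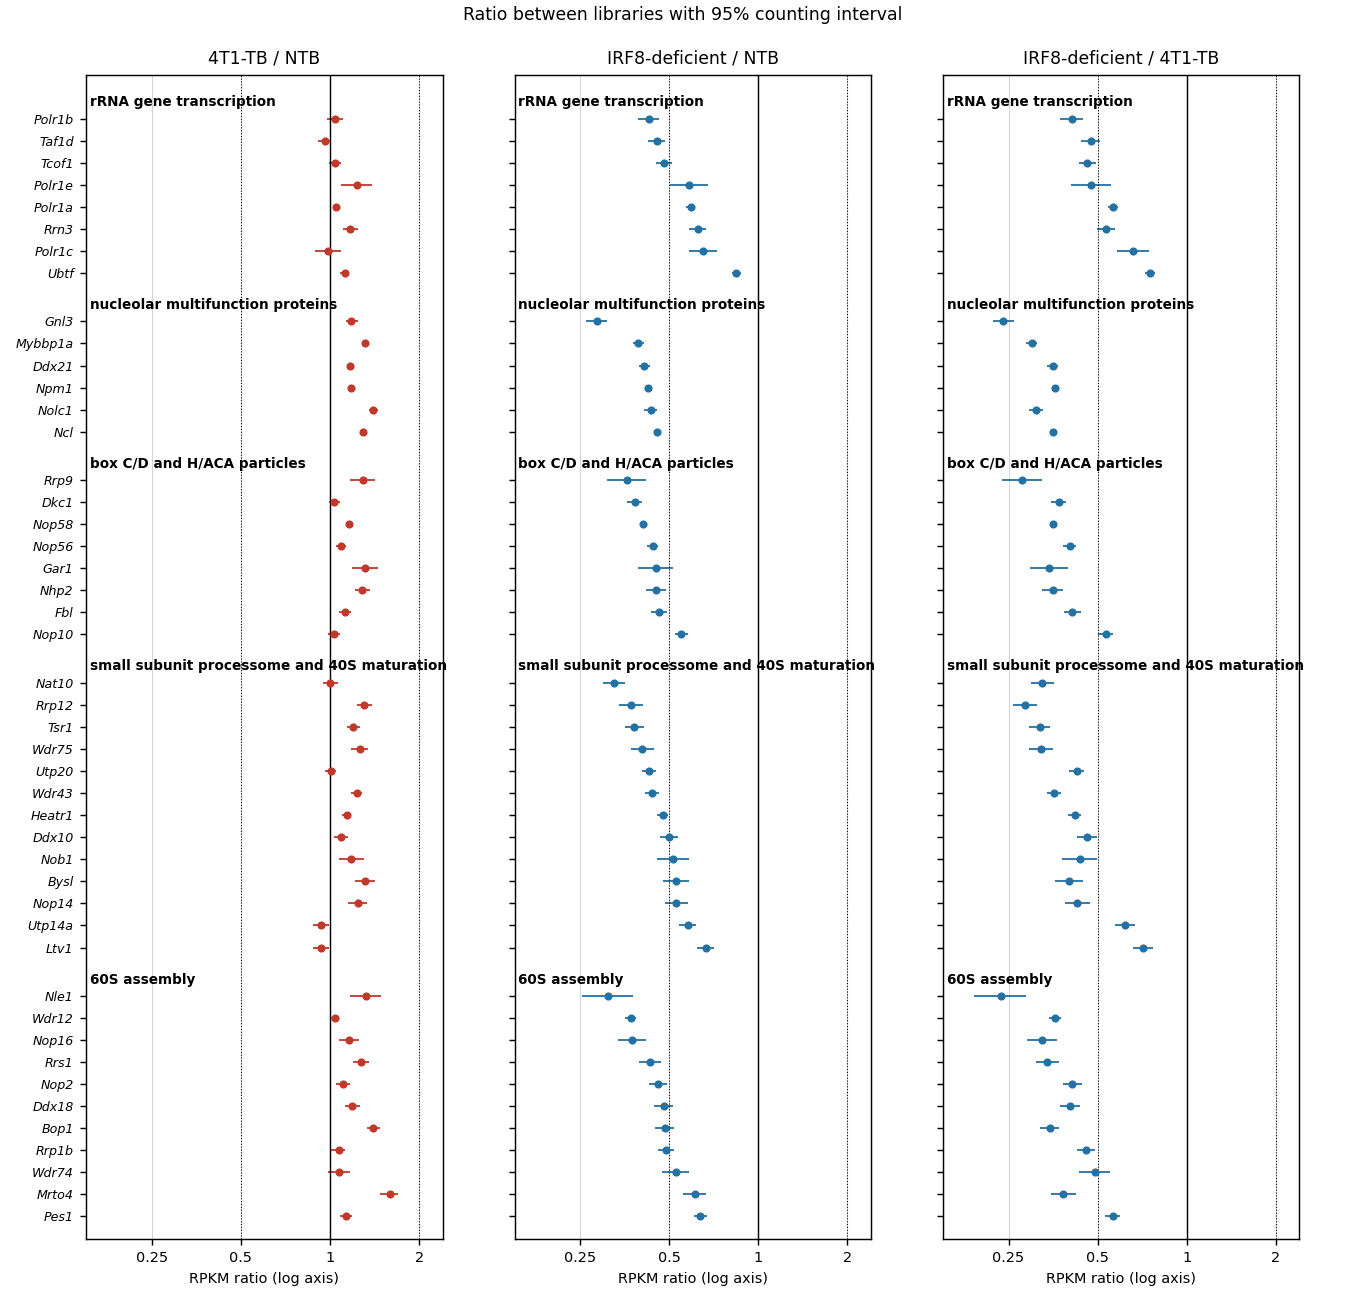
Ratio of RPKM between libraries for each member (log axis, points) with the 95% counting interval (bars), for 4T1-TB over NTB, IRF8-deficient over NTB and IRF8-deficient over 4T1-TB. The solid line marks equal levels and the dotted lines 2-fold, and in the panels with IRF8-deficient all 46 points lie left of the solid line.

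The 13 genes of the small subunit, from the early processome to late 40S maturation, had 7 called lower in IRF8-deficient against NTB, with a median of −1.02. Nat10, which acetylates cytidines in 18S ribosomal RNA, had an RPKM of 20.4 in 4T1-TB, 6.63 in IRF8-deficient and 20.4 in NTB. On chromosome 2 (chr2:103721256-103761270, minus strand), it was 3.07-fold lower in IRF8-deficient than in NTB (interval 2.83 to 3.34), while 4T1-TB and NTB had the same rounded level. Rrp12, which helps to export pre-40S particles, had 18.2 RPKM in 4T1-TB, 5.18 in IRF8-deficient and 13.9 in NTB and was 2.69-fold lower in IRF8-deficient than in NTB (interval 2.46 to 2.95). Tsr1, a GTPase-like factor of late pre-40S particles, had an RPKM of 30.2 in 4T1-TB, 9.58 in IRF8-deficient and 25.1 in NTB, and was 2.62-fold lower in IRF8-deficient than in NTB (interval 2.43 to 2.83). Wdr75 and Wdr43 belong to the complex that loads first onto the precursor. Wdr75 had 27.4 RPKM in 4T1-TB, 8.81 in IRF8-deficient and 21.8 in NTB, a level 2.47-fold lower in IRF8-deficient than in NTB (interval 2.26 to 2.7), and Wdr43 had an RPKM of 54.4 in 4T1-TB, 19.3 in IRF8-deficient and 44.3 in NTB, 2.29-fold lower in IRF8-deficient than in NTB (interval 2.17 to 2.42). Heatr1, another protein of that early complex, had 33.4 RPKM in 4T1-TB, 14 in IRF8-deficient and 29.5 in NTB, 2.11-fold lower in IRF8-deficient than in NTB (interval 2.01 to 2.2). Utp20, a large scaffold protein, had an RPKM of 16.1 in 4T1-TB, 6.86 in IRF8-deficient and 16 in NTB and was 2.34-fold lower in IRF8-deficient than in NTB (interval 2.21 to 2.47). In these 7 genes IRF8-deficient lay far below both other libraries. The remaining members were nearer to NTB, and 4 of them were called lower against 4T1-TB only. Nop14, a processome protein, had 21.1 RPKM in 4T1-TB, 9.03 in IRF8-deficient and 17.1 in NTB, 2.34-fold lower in IRF8-deficient than in 4T1-TB (interval 2.13 to 2.58). Ddx10, an RNA helicase gene, had an RPKM of 25.1 in 4T1-TB, 11.6 in IRF8-deficient and 23.1 in NTB, 2.18-fold lower in IRF8-deficient than in 4T1-TB (interval 2.01 to 2.35). Bysl, bystin, a factor of pre-40S particles, had 12.3 RPKM in 4T1-TB, 4.93 in IRF8-deficient and 9.36 in NTB, 2.49-fold lower in IRF8-deficient than in 4T1-TB (interval 2.24 to 2.78). Nob1, the nuclease that makes the final cut of 18S ribosomal RNA, had an RPKM of 17.6 in 4T1-TB, 7.65 in IRF8-deficient and 14.9 in NTB, 2.29-fold lower in IRF8-deficient than in 4T1-TB (interval 2.01 to 2.63). These 4 had their highest level in 4T1-TB, and NTB lay between the other libraries. Utp14a, a helicase cofactor, had 28.4 RPKM in 4T1-TB, 17.6 in IRF8-deficient and 30.6 in NTB. Ltv1, which leaves the pre-40S particle late in its maturation, had an RPKM of 36.9 in 4T1-TB, 26.2 in IRF8-deficient and 39.5 in NTB and was 1.51-fold lower in IRF8-deficient than in NTB (interval 1.41 to 1.61), the smallest difference in this group.

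Among the 11 genes of 60S assembly 7 were called lower in IRF8-deficient against NTB, also with a median of −1.02. Nle1, notchless, a factor removed from pre-60S particles by the ATPase midasin, had 11.4 RPKM in 4T1-TB, 2.67 in IRF8-deficient and 8.59 in NTB and was 3.22-fold lower in IRF8-deficient than in NTB (interval 2.66 to 3.94), with a wide interval from 123 reads in IRF8-deficient and 680 in NTB. Wdr12, Bop1 and Pes1 form the PeBoW complex, yet they did not differ equally. Wdr12 had an RPKM of 27 in 4T1-TB, 9.66 in IRF8-deficient and 26 in NTB, and was 2.69-fold lower in IRF8-deficient than in NTB (interval 2.58 to 2.81). Bop1 had 43.8 RPKM in 4T1-TB, 15 in IRF8-deficient and 31.2 in NTB, a level 2.07-fold lower in IRF8-deficient than in NTB (interval 1.93 to 2.23). Pes1 had an RPKM of 44 in 4T1-TB, 24.7 in IRF8-deficient and 38.8 in NTB and was 1.57-fold lower in IRF8-deficient than in NTB (interval 1.49 to 1.66). No counting interval of the 3 overlapped another. Nop16, which acts in pre-60S particles, had 26.6 RPKM in 4T1-TB, 8.61 in IRF8-deficient and 23 in NTB and was 2.67-fold lower in IRF8-deficient than in NTB (interval 2.39 to 2.99). Rrs1, which helps to recruit 5S ribosomal RNA, had an RPKM of 38.6 in 4T1-TB, 13 in IRF8-deficient and 30.3 in NTB and was 2.32-fold lower in IRF8-deficient than in NTB (interval 2.14 to 2.53). The RNA methyltransferase gene Nop2 had 34.6 RPKM in 4T1-TB, 14.2 in IRF8-deficient and 31.2 in NTB and was 2.19-fold lower in IRF8-deficient than in NTB (interval 2.04 to 2.35). The helicase gene Ddx18 had an RPKM of 38.5 in 4T1-TB, 15.6 in IRF8-deficient and 32.5 in NTB and was 2.09-fold lower in IRF8-deficient than in NTB (interval 1.94 to 2.25). Rrp1b, a nucleolar protein of pre-60S particles, had 21.5 RPKM in 4T1-TB, 9.82 in IRF8-deficient and 20.1 in NTB, 2.19-fold lower in IRF8-deficient than in 4T1-TB (interval 2.04 to 2.34). Wdr74, which acts with a remodelling ATPase, had an RPKM of 29.7 in 4T1-TB, 14.5 in IRF8-deficient and 27.6 in NTB. Mrto4, a relative of the stalk protein P0 that holds its place in pre-60S particles, had 51.4 RPKM in 4T1-TB, 19.7 in IRF8-deficient and 32.4 in NTB, 2.61-fold lower in IRF8-deficient than in 4T1-TB (interval 2.37 to 2.87). It was the single member past 1.5-fold between 4T1-TB and NTB, where 4.37% of all genes were past it upward and 4.97% downward, with a ratio of 1.59 (interval 1.48 to 1.7).

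In 4T1-TB the members were slightly higher than in NTB rather than lower. Their differences ran from −0.10 (Utp14a and Ltv1) to 0.65 (Mrto4), and 42 of 46 were above 0, where 51.0% of all genes were above and 49.0% below, but 29 of 46 were when libraries were scaled by summed reads. With the deposited scaling the counting interval of the ratio lay above 1 for 35 members and below 1 for 2. This was not counted over all genes, so it does not set the members apart. By role the median was 0.30 for the abundant nucleolar proteins, 0.23 for the small subunit, 0.20 for 60S assembly, 0.19 for the modifying particles and 0.06 for ribosomal RNA gene transcription, which was −0.08 when scaled by summed reads. Bop1 (ratio 1.4) and Mybbp1a (1.31) were among the higher ones, and Utp20 (1.01), Dkc1 (1.03) and Nop10 (1.03) stood near NTB. How much such ratios vary between animals is not known from 1 library per group.

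**Figure D3:**
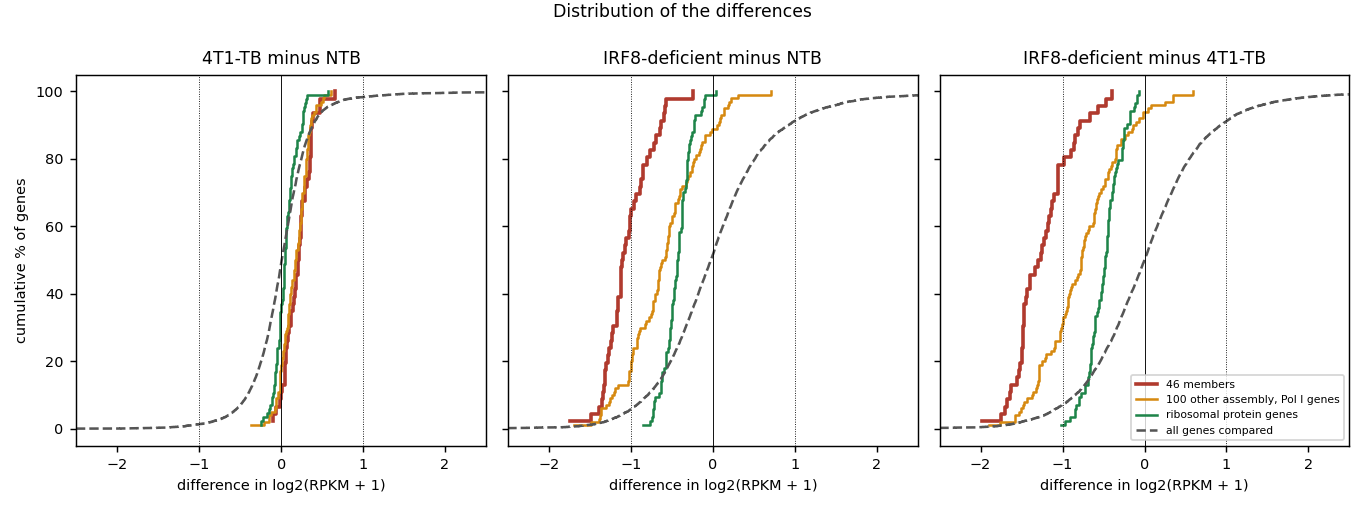
Cumulative share of genes (%) against the difference in log2(RPKM + 1), in panels for 4T1-TB minus NTB, IRF8-deficient minus NTB and IRF8-deficient minus 4T1-TB, for the 46 members, 100 other genes of assembly and RNA polymerase I, the ribosomal protein genes and all genes compared (dashed). In both panels with IRF8-deficient the members' curve lies furthest left, with a median of −1.10 against NTB, and in 4T1-TB minus NTB it reaches its median at 0.21.

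Other genes of the pathway were lower in IRF8-deficient too, with smaller medians. They are read against the same 5.73% of all genes called lower against NTB and 7.07% against 4T1-TB. Under other settings the share of all genes called lower against NTB was 17.4% by summed reads and 1.4% at a pseudocount of 5. Of 45 further 60S factors 10 were called lower and none higher against NTB, with a median of −0.65. Scaled by summed reads 31 were called lower, with a median of −1.13, and at a pseudocount of 5, 6 were. Largest were Ppan, which acts in 60S assembly (46.7 RPKM in 4T1-TB, 13 in IRF8-deficient and 44.2 in NTB), and Mdn1, the midasin gene (21 RPKM in 4T1-TB, 7.51 in IRF8-deficient and 21.3 in NTB), then Noc3l and Sdad1. Against 4T1-TB 16 were called lower, led by Rrp15, Ppan, Ftsj3 and Noc3l. Of 41 further small subunit factors 6 were called lower and none higher against NTB, with a median of −0.56. By summed reads 22 were called lower, with a median of −1.07, and at a pseudocount of 5, 1 was. Rcl1 had 20.1 RPKM in 4T1-TB, 6.07 in IRF8-deficient and 18.9 in NTB, and Pdcd11 had 21.3 RPKM in 4T1-TB, 6.89 in IRF8-deficient and 18 in NTB, followed by Pwp2 and Cirh1a. Against 4T1-TB 12 of them were called lower, led by Rcl1, Pdcd11, Noc4l and Pno1. Assembly factors outside the members thus had the same direction in most cases, with 43 of the 45 and 35 of the 41 below 0 against NTB.

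Of 14 further genes of polymerase I and its factors 1 was called lower against NTB, Polr2h, a subunit that the nuclear polymerases share (32.7 RPKM in 4T1-TB, 12.2 in IRF8-deficient and 29.2 in NTB), and the median was −0.46. By summed reads 7 were called lower, with a median of −0.97, where 17.4% of all genes were called lower. Against 4T1-TB 4 were, Polr2h, Polr2l, Cd3eap and Polr2f. Of 15 genes of the exosome and related nucleases that trim ribosomal RNA precursors none was called against NTB (median −0.39) and 1, Exosc2, was called lower against 4T1-TB. By summed reads 5 of the 15 were called lower against NTB, with a median of −0.87. Of 11 host genes of small nucleolar RNAs 4 were called lower against NTB, with a median of −0.96, and 9 were by summed reads. Gas5 had 120.4 RPKM in 4T1-TB, 53.4 in IRF8-deficient and 127 in NTB, and Snhg1 had 81.5 RPKM in 4T1-TB, 28 in IRF8-deficient and 63.6 in NTB, beside Snhg8 and Snhg4. Against 4T1-TB 9 were called lower, led by Snhg9, Snhg1, Snhg3 and Snhg4. At a pseudocount of 5, 4 were, where 2.92% of all genes were. Snhg9 had 0 reads in IRF8-deficient and 12 in 4T1-TB, so the size of its difference is set by the pseudocount. Of the ribosomal proteins themselves, 84 genes, none was called and 83 were below 0 against NTB, with a median of −0.43. Without Rn45s 9 of the 84 were called lower (median −0.77), where 11.8% of all genes were. By summed reads 34 were (median −0.95), where 17.4% of all genes were. Against 4T1-TB 1 was called lower, Rpl26, on 12 reads in IRF8-deficient and 33 in 4T1-TB. In 4T1-TB against NTB the medians of these lists lay between 0.04 and 0.24, and by summed reads those of the polymerase list (−0.08) and the ribosomal proteins (−0.11) were below 0. The single call there was Snhg9, higher on 12 reads in 4T1-TB and 4 in NTB.

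The MYC network, the cell cycle and the ribosomal RNA row Rn45s went different ways. Myc, which encodes the transcription factor, had 76.6 RPKM in 4T1-TB, 25.7 in IRF8-deficient and 69.8 in NTB, a ratio of IRF8-deficient to NTB of 0.368 (interval 0.348 to 0.388). Of the 9 network genes compared, the MYC antagonists Mxd1, Mxd3 and Mxi1 were called higher in IRF8-deficient than in NTB. Mxd1 had 19.6 RPKM in 4T1-TB, 69.8 in IRF8-deficient and 7.76 in NTB. Mxd3 had 2.77 RPKM in 4T1-TB, 25.7 in IRF8-deficient and 4.54 in NTB. Mxi1 had 18.2 RPKM in 4T1-TB, 31.5 in IRF8-deficient and 15 in NTB, and its difference of 1.03 was 0.51 by summed reads. Mxd1 was also called higher in 4T1-TB than in NTB, while Myc and the members there stood near NTB. Cell cycle genes did not follow the members as a set. Of 18 none was called in IRF8-deficient against NTB, with a median of 0.30 that was −0.22 by summed reads. With the deposited scaling they split, with 12 above 0 and 6 below. Those below were Mcm2 to Mcm7, from −0.59 (Mcm3) to −0.14 (Mcm4). The proliferation marker Mki67 had 186 RPKM in 4T1-TB, 368 in IRF8-deficient and 189.8 in NTB, and its difference of 0.95 between IRF8-deficient and NTB was 0.60 without Rn45s and 0.42 by summed reads. The row Rn45s, named for the ribosomal RNA precursor, had 11417 RPKM in 4T1-TB, 32498 in IRF8-deficient and 2903 in NTB. It took 6.18% of the reads in 4T1-TB, 13.5% in IRF8-deficient and 1.75% in NTB. The Rn45s row was thus highest in the library where the members were lowest. Whether its reads came from the precursor or from ribosomal RNA already cut from it is not known here, so it does not measure the precursor. How ribosomal RNA was removed from the libraries is not known here. The part of the Rn45s row, of the later neutrophil markers and of Myc in the members' difference was not tested.

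Some members have small nucleolar RNA genes within their span. In GENCODE M21 8 of the 46 (17.4%) contain annotated small nucleolar RNA genes on their own strand, 29 in all, beside 1.79% of the 9880 protein-coding genes compared. The hosts are Ncl, Nop56, Nop58, Dkc1, Wdr43, Gnl3, Tsr1 and Taf1d, with 8 such genes in Taf1d and 5 in Nop56. Of the 13 that the deposited tables list, 10 were listed at 0 in every library. The other 3, all within Ncl, had few reads. Snora75 had 7 reads in 4T1-TB, 5 in IRF8-deficient and 8 in NTB. Gm24148 had 10 reads in 4T1-TB, 5 in IRF8-deficient and 13 in NTB. Snord82 had 5 reads in 4T1-TB, 3 in IRF8-deficient and 0 in NTB. A difference between libraries could not be read from so few reads, and whether the library preparation kept small RNAs is not known here.

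**Figure D4:**
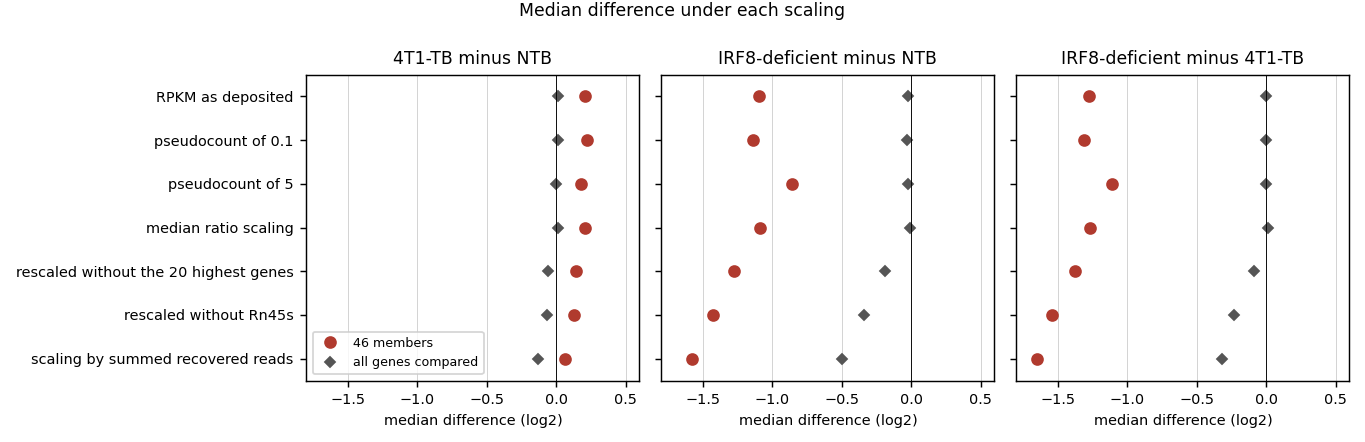
Median difference (log2) of the 46 members (circles) and of all genes compared (diamonds) under the deposited RPKM and 6 other pseudocounts or scalings, in panels for 4T1-TB minus NTB, IRF8-deficient minus NTB and IRF8-deficient minus 4T1-TB. With IRF8-deficient the members' median runs from −0.86 to −1.58 against NTB and stays left of that of all genes in each setting. A scaling moves both medians nearly alike by its construction.

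The size of the difference depends on how libraries are scaled. Each scaling multiplies all genes of a library by the same factor. The gap between members and all genes is therefore nearly fixed in advance and is no check of the scaling. Scaled by summed reads, the median of all genes against NTB was −0.50 and that of the members to −1.58, a gap of −1.08, and 44 members were called lower, where 17.4% of all genes were. By role that scaling called 6 of 8 genes of ribosomal RNA gene transcription, 6 of 6 abundant nucleolar proteins, 8 of 8 of the modifying particles, 13 of 13 of the small subunit and 11 of 11 of 60S assembly. The gap was −1.08 with the deposited RPKM too, and −0.85 at a pseudocount of 5. Exons of 19 members overlap those of a gene on the opposite strand, and whether reads were counted by strand is not given. Among the other 27, 16 were called lower in IRF8-deficient against NTB, with a median of −1.08. Mrto4 has named pseudogene copies, so its count is uncertain beyond counting error. Only pseudogenes named after a member were counted, so the same may hold for other members.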

How the data were processed

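RPKM, reads scaled to gene length in kilobases and to library size, was deposited by the authors for 24421 symbols in 3 libraries, 1 per group. The submitters' processing notes list build mm10 with edgeR 3.12.1, HTSeq 0.6.1, cutadapt 1.2.1, Picard 1.97, CASAVA 1.8.2 and TopHat2 2.0.13, and not what each did. The annotation, strandedness and handling of reads with several matches were not found in these sources.

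RPKM was used as deposited. A gene's values across libraries form whole-number ratios, so whole reads were recovered for 15158 genes. The implied gene length was whole to within 0.05 for 98.2% of well covered genes, and within 0.8 to 1.25 of a GENCODE M21 length for 92.8% of 14397 genes. That reference also settled common factors, so this share is not an independent check. Where such a factor is too large, the recovered reads are too many and the counting interval is too narrow. The implied library size was 0.928 times the recovered reads in 4T1-TB, 0.714 times in IRF8-deficient and 1.03 times in NTB. Reads gave exact binomial (Clopper-Pearson) intervals of ratios. At the median gene length an RPKM of 1 rested on 64.5 reads in 4T1-TB, 75.9 in IRF8-deficient and 130 in NTB.

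Members, role groups and lists were chosen with earlier results of these data known. All 46 members were named. Ratios with intervals are given for the 4 members of each role with the largest difference between IRF8-deficient and NTB and for members called in any comparison, with Ubtf, Rrn3, Nop10, Ltv1 and Pes1 added after their values were seen. Up to 4 called genes of each other list are named. Steps were tested on simulated data with counting error only, built on the recovered gene lengths. Such data could not show a wrong common factor in the reads or variation between animals. Alternatives were pseudocounts of 0.1 and 5, 4 scalings, no filter, a filter at an RPKM of 5, and calls at 1.5-fold and 4-fold. Protein sequences were not used here. Software was matplotlib 3.10.9, pandas 2.3.3, scipy 1.17.1 and numpy 2.4.6 under Python 3.11.15.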

Additional observations from a re-analysis of the deposited data

How the results depend on the processing

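No paired analysis was possible because each group is 1 library, and for the same reason no replicate could be left out. Every member stayed lower in IRF8-deficient than in NTB and 4T1-TB in each alternative run, and no called value changed direction. For IRF8-deficient against NTB, the members' median was −0.86 and 17 were called lower at a pseudocount of 5, where 1.4% of all genes were. The median was −1.28 without the 20 highest genes, −1.43 without Rn45s and −1.58 by summed reads. By summed reads 44 were called lower, where 17.4% of all genes were. Against 4T1-TB the median was −1.11 at a pseudocount of 5, −1.54 without Rn45s and −1.65 by summed reads. At 4-fold 0 members were called lower in either comparison, where 0.385% of all genes were against NTB and 0.469% against 4T1-TB. With so few genes called, this count does not set the members apart. For 4T1-TB against NTB, 1 member was called higher at 1.5-fold, where 4.37% of all genes were, and summed reads gave a median of 0.06. The share of members above 0 there was 34 of 46 without the 20 highest genes or without Rn45s. The median of all genes was then −0.06 without the 20 highest genes and −0.07 without Rn45s. How many of all genes were above 0 was not counted under these scalings.

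Counts over all genes moved more, given here as higher then lower. For 4T1-TB against NTB they were 282 and 354 at a pseudocount of 0.1, 65 and 21 at 5, 115 and 74 at an RPKM of at least 5, 466 and 530 at 1.5-fold, and 47 and 5 at 4-fold. For IRF8-deficient against NTB they were 526 and 149 at a pseudocount of 5, 570 and 1250 without Rn45s, 450 and 1836 by summed reads, 1859 and 1778 at 1.5-fold, and 203 and 41 at 4-fold. A pseudocount of 0.1 gave 1071 lower there, and leaving out the 20 highest genes 936. For IRF8-deficient against 4T1-TB they were 475 and 311 at a pseudocount of 5, 601 and 1192 without Rn45s, 492 and 1457 by summed reads, 1987 and 1927 at 1.5-fold, and 178 and 50 at 4-fold. Of all calls against NTB in IRF8-deficient, 39.5% were lower with the deposited scaling, 56% without the 20 highest genes, 68.7% without Rn45s and 80.3% by summed reads. Against 4T1-TB these shares were 44.5% as deposited, 54% without the 20 highest genes, 66.5% without Rn45s and 74.8% by summed reads. Across the alternative pseudocounts, scalings and filters, at the 2-fold call, single members against NTB in IRF8-deficient gained the call 35 times and lost it 13 times, and against 4T1-TB 17 and 9 times. The cause was not tested. Depth limits Nle1, Polr1e and Rrp9 most, and variation between animals could not be measured.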

Other observations

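Not every factor of ribosome assembly was lower in the IRF8-deficient library. Riok3, an atypical kinase of late pre-40S particles, had 39.8 RPKM in 4T1-TB, 60.3 in IRF8-deficient and 36.5 in NTB, a ratio of IRF8-deficient to NTB of 1.65 (interval 1.59 to 1.71). Baz2a, which takes part in silencing ribosomal DNA, had 17.9 RPKM in 4T1-TB, 23 in IRF8-deficient and 19.9 in NTB, and its difference of 0.20 from NTB in IRF8-deficient was −0.31 by summed reads. Ttf1, the termination factor of RNA polymerase I, had 12.6 RPKM in 4T1-TB, 13.4 in IRF8-deficient and 12.7 in NTB, so the counting interval of its ratio to NTB (0.987 to 1.13) held 1. By summed reads the difference of Ttf1 was −0.42, and that of Riok3 was 0.19. These 3 genes were singled out after their values were seen.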
